A study of Homo sapiens with 6 samples.

Results

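Ribosome biogenesis factors are the proteins that transcribe ribosomal RNA and then cut, modify and fold it into ribosomal subunits. A set of 50 such genes was followed by symbol in the RNA sequencing counts of HCCLM3 cells, out of 20263 genes in the table, and all 50 passed the filter on low counts that left 13444 genes for testing. The set covers initiation of RNA polymerase I (6 genes), the proteins of box H/ACA (4) and box C/D (4) small nucleolar ribonucleoproteins (snoRNPs), nucleolar phosphoproteins (3), the small subunit processome (12), late steps of the small subunit (6) and steps of the large subunit (15). HCCLM3 is a human hepatocellular carcinoma line. One group of 3 libraries came from cells given CC-885 for 24 h, and the other group of 3 libraries from cells given the solvent DMSO. CC-885 is a small molecule that turns the ubiquitin ligase receptor cereblon towards other proteins, such as the translation termination factor GSPT1, and was used at a dose not given in the sources used here.

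Ribosome production starts in the nucleolus, where RNA polymerase I copies the ribosomal DNA into a long precursor. Processome proteins and snoRNPs assemble on the growing precursor, guide its methylation and pseudouridylation and cut out the spacers, after which the precursors of both subunits mature apart and leave the nucleus. Genes of this programme are widely known as targets of MYC, and ribosome production is known to be high in growing tumour cells.

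Total counts ran from 30432509 to 39809131 with CC-885 and from 32952518 to 37574380 with DMSO. On log2 CPM (counts scaled to a common library total) libraries correlated at 0.980 or more within a group and at 0.956 or less across groups. The labels do not state that libraries came from separate cultures, so p-values measure the spread between libraries, which may be technical. Of 11 hepatocyte markers, 7 were at 0 in all 6 libraries, among them ALB, AFP and APOB, and the summed level of the 11 was 0.174 to 0.520 CPM under CC-885 and 1.23 to 1.55 CPM under DMSO. Most of the DMSO sum was HNF4A alone, which averaged 0.214 CPM under CC-885 and 1.25 CPM under DMSO. HNF4A was called lower with CC-885 (log2 fold change -2.50, edgeR quasi-likelihood test, adjusted p = 0.00156). The defining markers of hepatocytes were thus absent or near 0 in these cells. Of 5 epithelial markers, the keratins KRT8 and KRT18 were abundant. KRT8 averaged 889.8 ± 106 CPM under CC-885 and 1252 ± 136 CPM under DMSO, and was lower with CC-885 (edgeR quasi-likelihood test, adjusted p = 0.0236). The other markers were low. EPCAM averaged 3.64 CPM under CC-885 and 3.46 CPM under DMSO, and CDH1 3.78 CPM under CC-885 and 4.50 CPM under DMSO. KRT19 averaged 0 CPM under CC-885 and 0.0174 CPM under DMSO. Of 8 markers of blood, endothelium and fibroblasts, PTPRC, CD3E and LYZ were at 0 throughout. The summed level of these 8 was 139.8 to 173 CPM under CC-885 and 99.6 to 112 CPM under DMSO, nearly all of it COL1A1. Ribosomal protein genes (86) took 4.13 to 4.69% of counts with CC-885 and 5.75 to 9.21% with DMSO, and mitochondrial genes 4.83 to 6.16% with CC-885 and 4.29 to 8.16% with DMSO. The part of these shares in the results below was not tested.

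Most ribosome biogenesis mRNAs were higher with CC-885. Of the 50, 34 were called higher and 2 lower (edgeR quasi-likelihood test, adjusted p below 0.05), while 14 were not called. Over all 13444 tested genes 52.6% were called, 25.8% higher and 26.8% lower, so the share of higher members, 68%, stood above the background and the share of lower members, 4%, below it. The median log2 fold change of the 50 was 0.47, against -0.04 for all tested genes. Most changes were moderate. Only 7 members were higher by at least 2-fold, 14% of the set against 8.23% of all tested genes, and these were RRP12, TAF1A, RRN3, TAF1D, BYSL, DDX21 and WDR43. The members together took 0.649, 0.690 and 0.702% of a library's counts under CC-885, against 0.520, 0.552 and 0.549% under DMSO. These counts are relative to the other RNA of a library, so a change in the amount of RNA per cell cannot be told apart from a change in its make-up, nor fewer cells of a kind from less RNA per cell. In 35 members every CC-885 library lay above every DMSO library, a separation that 29.9% of all tested genes showed, and in 2 every CC-885 library lay below, as in 31.2% of all tested genes. The number of members called higher was 26, 24 and 28 without CC-885 replicate 1, 2 or 3, and 24, 34 and 35 without DMSO replicate 1, 2 or 3.

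**Figure D1:**
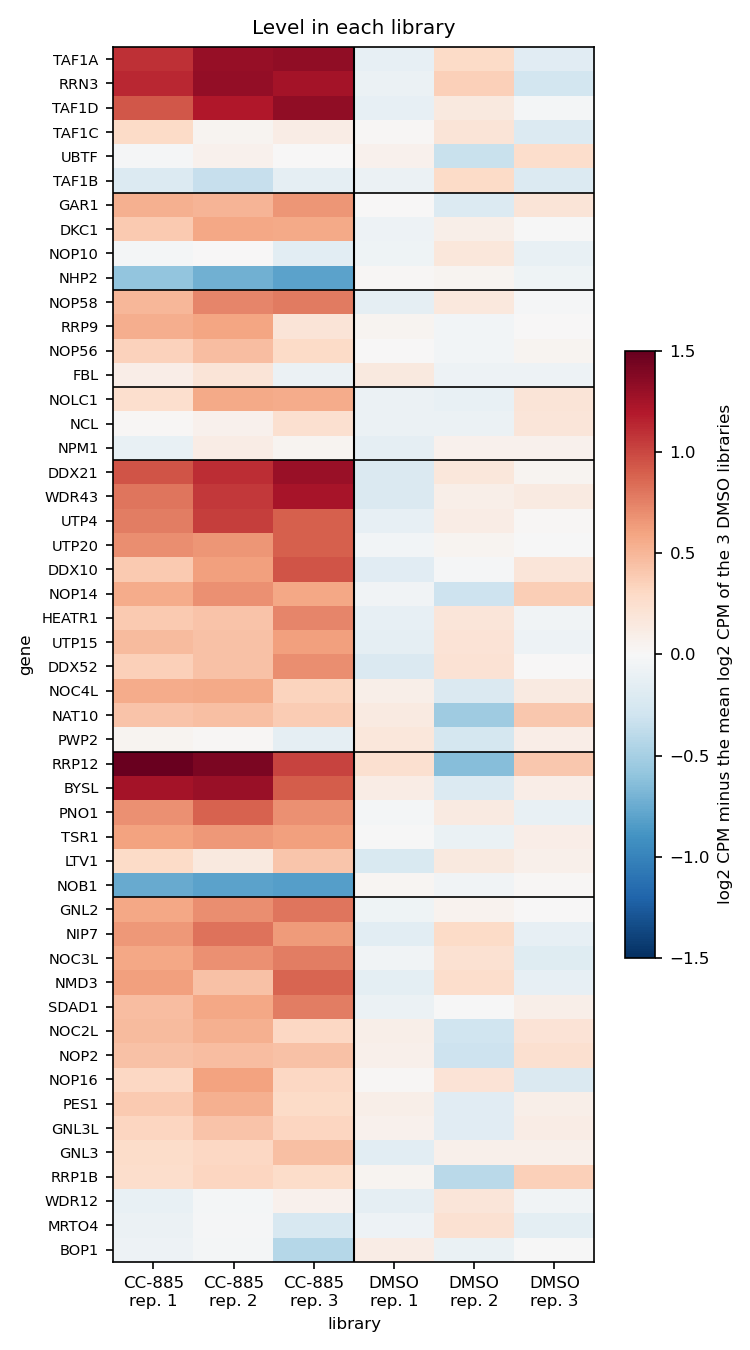
Level of each of the 50 genes in each library, as log2 CPM minus the mean log2 CPM of the 3 DMSO libraries, with the roles separated by lines. The CC-885 columns are red for most genes, NHP2 and NOB1 are blue in all 3 CC-885 libraries, and the DMSO libraries differ among themselves most for RRP12 and NAT10.

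**Figure D2:**
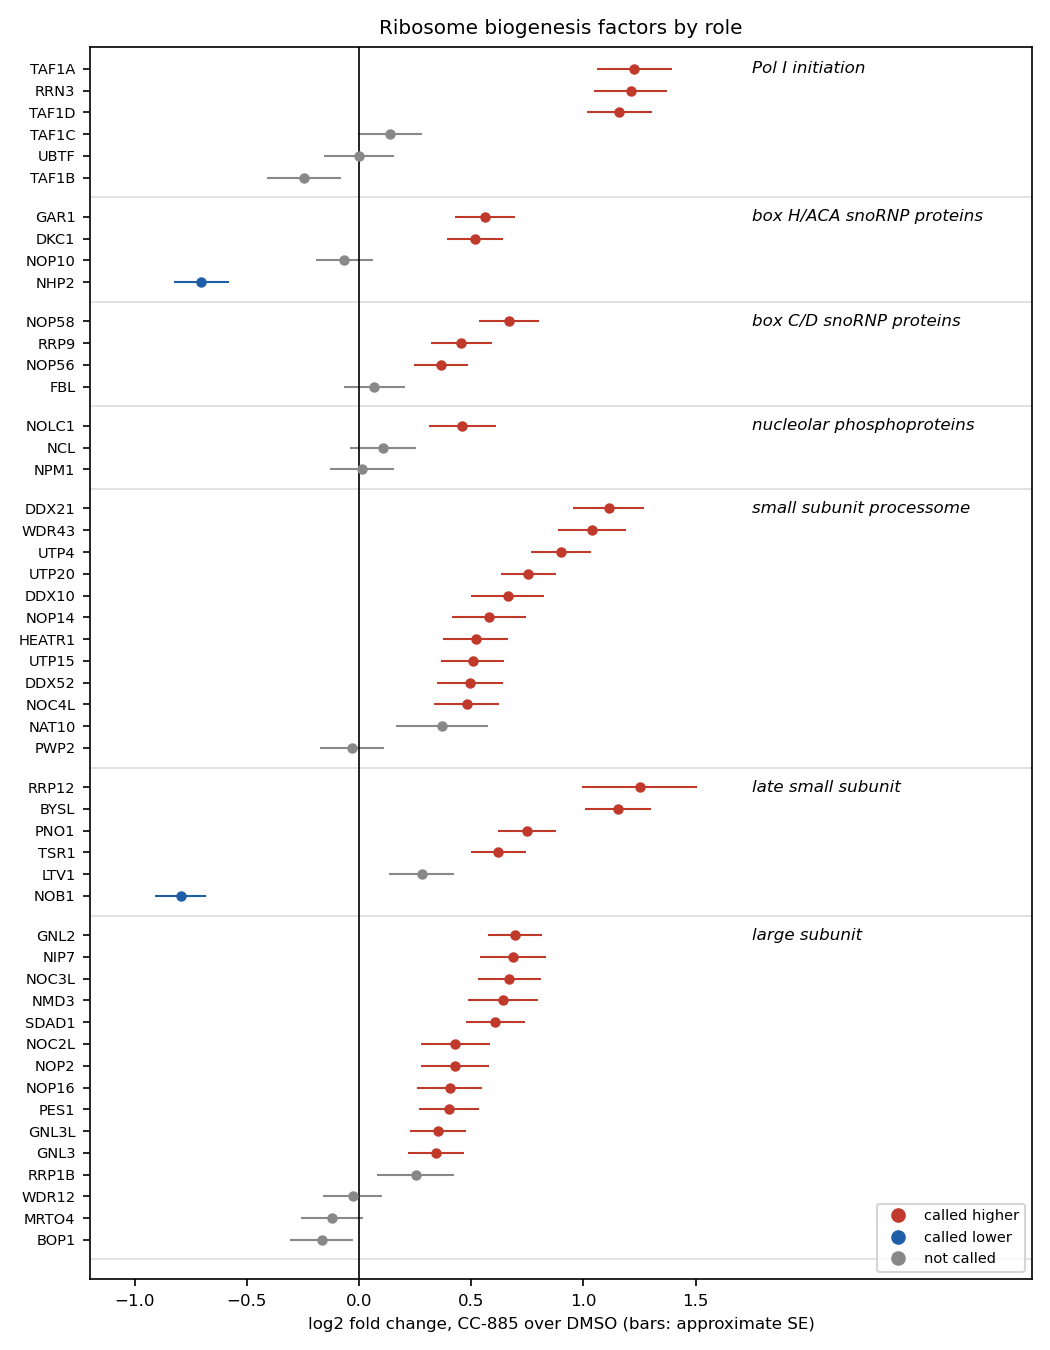
Log2 fold change of CC-885 over DMSO for each gene, by role, with its approximate standard error; colours give the call at an adjusted p below 0.05. The range runs from -0.80 for NOB1 to 1.25 for RRP12, and 42 of the 50 values are above 0.

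Among the initiation factors of RNA polymerase I, 3 of 6 were higher by more than 2-fold and the other 3 were not called. Over all tested genes 8.23% were called higher by at least 2-fold. RRN3, which links the polymerase to factors bound at the ribosomal DNA promoter, stood at 122, 139 and 132 CPM in CC-885 cells and at 52.5, 71.1 and 46.0 CPM in the DMSO libraries. The lowest CC-885 value was well above the highest DMSO value (log2 fold change 1.21, SE 0.16, adjusted p = 0.000118), and RRN3 has 2 named pseudogenes that could share its reads. TAF1A and TAF1D are subunits of the promoter selectivity factor SL1, which brings TBP to the ribosomal DNA. TAF1A gave 19.8, 22.9 and 23.3 CPM under CC-885 and 8.54, 11.4 and 8.26 CPM under DMSO (log2 fold change 1.23, SE 0.17, adjusted p = 0.000119). TAF1D gave 196, 234 and 257 CPM under CC-885 and 93.9, 113 and 100.4 CPM under DMSO (log2 fold change 1.16, SE 0.15, adjusted p = 7.31e-05). No CC-885 value of either gene reached down to a DMSO value. TAF1D shares exonic sequence on the opposite strand with CEP295 and MED17, which were also called higher (log2 fold changes 1.22 and 0.73). It shares exonic sequence there with C11orf54 as well, which was not called (-0.24). With the strand setting of the counts not given in the sources used here, reads of such neighbours cannot be told apart. The other SL1 subunits did not pass the test, with log2 fold changes of -0.25 for TAF1B (adjusted p = 0.232) and 0.14 for TAF1C (adjusted p = 0.432). TAF1B passed as lower once GC content and transcript length entered as offsets (log2 fold change -0.31, adjusted p = 0.0393). UBTF, the architectural protein that coats active ribosomal DNA, averaged 178 ± 4.83 CPM under CC-885 and 178 ± 35.8 CPM under DMSO and was not called (log2 fold change 0.00, SE 0.16, adjusted p = 0.998).

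Box H/ACA snoRNPs turn uridines of ribosomal RNA into pseudouridines, and their 4 proteins also belong to telomerase. Of these, 2 were higher, 1 was lower and 1 was not called. That made 50% higher and 25% lower, against 25.8% and 26.8% of all tested genes. The share lower was thus near the background. DKC1, the pseudouridine synthase itself, stood at 192, 218 and 216 CPM under CC-885 and 138, 155 and 145 CPM under DMSO (log2 fold change 0.52, SE 0.13, adjusted p = 0.00516). GAR1, which helps the enzyme load and release its substrate, stood at 51.1, 50.5 and 56.0 CPM under CC-885 and 35.6, 30.7 and 40.5 CPM under DMSO (log2 fold change 0.56, SE 0.14, adjusted p = 0.00484). Both were higher in each CC-885 library than in any DMSO library. NHP2, an RNA-binding core protein of the same particle, went the other way, at 111, 102 and 95.8 CPM under CC-885 and 169, 173 and 160.1 CPM under DMSO (log2 fold change -0.70, SE 0.12, adjusted p = 0.000674). All CC-885 values of NHP2 lay below all its DMSO values. Once GC content and transcript length entered as offsets, the decrease of NHP2 was smaller (log2 fold change -0.35, adjusted p = 0.00967). NHP2 shares exonic sequence with RMND5B on the opposite strand, which fell as well (log2 fold change -0.66), and their reads cannot be told apart. NHP2 also has 2 named pseudogenes. NOP10, the smallest core protein, was not called, at 99.4, 101 and 90.8 CPM under CC-885 and 97.3, 114 and 94.3 CPM under DMSO (log2 fold change -0.07, SE 0.13, adjusted p = 0.681).

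Box C/D snoRNPs guide the methylation of ribose in ribosomal RNA. Their scaffold proteins were higher and their enzyme was not called. NOP58 gave 85.5, 100.3 and 103 CPM under CC-885 and 54.9, 67.4 and 59.6 CPM under DMSO (log2 fold change 0.67, SE 0.13, adjusted p = 0.00153). Its partner NOP56 gave 171, 185 and 165 CPM under CC-885 and 135, 131 and 139 CPM under DMSO (log2 fold change 0.37, SE 0.12, adjusted p = 0.0246). The groups did not overlap for either. The call of NOP56 did not hold without replicate 1 (adjusted p of 0.0625) or 2 (0.122) of CC-885 or replicate 1 (0.0757) of DMSO. It was also lost with a filter at 5 CPM in 3 libraries (adjusted p of 0.0537). RRP9, a protein of the U3 particle that is needed for the first cuts of the precursor, stood at 59.4, 61.1 and 46.6 CPM under CC-885 and 41.7, 39.4 and 40.7 CPM under DMSO (log2 fold change 0.46, SE 0.14, adjusted p = 0.0144), a call that did not hold without replicate 1 (adjusted p of 0.0574) or 2 (0.0757) of CC-885. FBL, the methyltransferase fibrillarin, gave 216, 229.6 and 190.2 CPM under CC-885 and 223, 192 and 192 CPM under DMSO, overlapping ranges (log2 fold change 0.07, SE 0.13, adjusted p = 0.691). Once GC content and transcript length entered as offsets, FBL passed as higher (log2 fold change 0.32, adjusted p = 0.0177).

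Per kilobase of annotated exon the nucleolar phosphoproteins NPM1 and NCL were among the most abundant members, and neither was called. NPM1, a histone and ribosome chaperone of the outer nucleolus, gave 553, 642 and 613 CPM under CC-885 and 544, 623 and 626 CPM under DMSO (log2 fold change 0.01, SE 0.14, adjusted p = 0.952); 45 pseudogenes carry its name, so its counts are less certain. NCL, nucleolin, had a log2 fold change of 0.11 (SE 0.15, adjusted p = 0.566). NOLC1, which ferries snoRNPs through the nucleolus, was higher, at 283, 354 and 352 CPM under CC-885 and 225, 221 and 274 CPM under DMSO (log2 fold change 0.46, SE 0.15, adjusted p = 0.0227). Its lowest CC-885 value lay just above its highest DMSO value, and the call did not hold without replicate 2 (adjusted p of 0.0938) or 3 (0.0805) of CC-885 or replicate 1 (0.0844) of DMSO.

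The small subunit processome is the large particle in which the precursor of the small subunit folds and is first cut. Of its 12 members 10 were higher (83.3%) and 0 lower, against 25.8% and 26.8% of all tested genes. Their median log2 fold change was 0.55. DDX21, an RNA helicase of the nucleolus, was the most abundant of them per kilobase of exon (117 CPM per kilobase under CC-885 and 54.1 under DMSO). Its level was 517, 582 and 661 CPM under CC-885 and 232, 305 and 278 CPM under DMSO (log2 fold change 1.11, SE 0.16, adjusted p = 0.000171). WDR43 and UTP4 belong to the subcomplex that binds the precursor first and is also needed for its transcription. WDR43 stood at 133, 159 and 178 CPM under CC-885 and 65.3, 80.5 and 83.4 CPM under DMSO (log2 fold change 1.04, SE 0.15, adjusted p = 0.000204). UTP4 stood at 190.3, 229.8 and 209 CPM under CC-885 and 103, 121 and 113 CPM under DMSO (log2 fold change 0.90, SE 0.13, adjusted p = 0.000218), and shares exonic sequence with CHTF8, which was not called. All 3 genes were higher in each CC-885 library than in any DMSO library. UTP15 (0.51) and HEATR1 (0.52) of the same subcomplex were higher by less. The call of UTP15 did not hold without replicate 1 (adjusted p of 0.0577) of DMSO, and that of HEATR1 without replicate 3 (adjusted p of 0.0537) of CC-885 or replicate 1 (0.0574) of DMSO. UTP15 shares exonic sequence with ANKRA2, which fell, and HEATR1 with LGALS8, which was higher (log2 fold changes -1.12 and 0.58). Also higher were UTP20 (log2 fold change 0.75), the helicases DDX10 (0.66) and DDX52 (0.49), and the partners NOP14 (0.58) and NOC4L (0.48). The call of DDX52 did not hold without replicate 3 (adjusted p of 0.0691) of CC-885 or replicate 1 (0.0772) of DMSO, and that of NOC4L without replicate 1 (adjusted p of 0.0546) or 2 (0.0630) of CC-885. PWP2, a core protein of another subcomplex, was not called (log2 fold change -0.03, SE 0.14, adjusted p = 0.868). NAT10, which acetylates cytidines of ribosomal RNA, was not called (log2 fold change 0.37, SE 0.20, adjusted p = 0.155). Its DMSO libraries ranged from 82.0 to 157 CPM, and NAT10 passed as higher without DMSO replicate 3 (log2 fold change 0.58, adjusted p = 0.00888).

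In the late maturation of the small subunit, 4 of 6 factors were higher (66.7%) and 1 lower (16.7%). Over all tested genes 25.8% were higher and 26.8% lower. BYSL, needed for the export of the small subunit precursor, gave 115, 119 and 90.7 CPM under CC-885 and 52.2, 42.0 and 51.7 CPM under DMSO (log2 fold change 1.15, SE 0.15, adjusted p = 8.43e-05). PNO1, which sits beside the last cleavage site of the small subunit RNA, gave 88.2, 101 and 88.5 CPM under CC-885 and 54.1, 60.6 and 50.9 CPM under DMSO (log2 fold change 0.75, SE 0.13, adjusted p = 0.000548). TSR1, an inactive relative of translation GTPases, gave 201, 208 and 202 CPM under CC-885 and 132, 124 and 142 CPM under DMSO (log2 fold change 0.62, SE 0.12, adjusted p = 0.00149). In these 3 genes the groups stood clear of each other. TSR1 shares exonic sequence with SRR, which fell (log2 fold change -0.81), and with SGSM2, which was not called (-0.19). NOB1, the endonuclease that makes the last cut, was lower in every CC-885 library, at 60.9, 58.8 and 58.3 CPM under CC-885 and 105, 99.6 and 104 CPM under DMSO (log2 fold change -0.80, SE 0.11, adjusted p = 0.000183). NOB1 remained lower once GC content and transcript length entered as offsets (log2 fold change -0.58, adjusted p = 0.000528). NOB1 lies on chromosome 16 near UTP4 and NIP7, both of which were higher. RRP12 had the largest log2 fold change of all 50 (1.25, SE 0.26, adjusted p = 0.00234) at low levels, 12.4, 11.8 and 8.89 CPM under CC-885 and 5.22, 2.83 and 5.83 CPM under DMSO. LTV1 did not pass (log2 fold change 0.28, SE 0.14, adjusted p = 0.124), though its lowest CC-885 value, 29.71 CPM, was just above its highest DMSO value, 29.66 CPM.

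Of the 15 factors of the large subunit 11 were higher (73.3%) and 0 lower, against 25.8% and 26.8% of all tested genes. The median log2 fold change was 0.40, with none above 2-fold. GNL2, a GTPase of the nucleolar precursor, stood at 91.0, 99.1 and 106 CPM under CC-885 and 58.5, 63.4 and 61.1 CPM under DMSO (log2 fold change 0.69, SE 0.12, adjusted p = 0.000630). NOC3L stood at 41.4, 44.5 and 47.0 CPM under CC-885 and 26.7, 32.4 and 24.5 CPM under DMSO (log2 fold change 0.67, SE 0.14, adjusted p = 0.00212). NIP7 stood at 67.2, 75.5 and 66.6 CPM under CC-885 and 38.3, 52.5 and 39.3 CPM under DMSO (log2 fold change 0.68, SE 0.15, adjusted p = 0.00242). For all 3 the lowest CC-885 library was above the highest DMSO library. NIP7 shares exonic sequence with COG8, which was not called (log2 fold change -0.31). NMD3, the adaptor that takes the large subunit through the nuclear pore, and SDAD1 were higher too (log2 fold changes 0.64 and 0.61); SDAD1 shares exonic sequence with NAAA, which fell (-0.98). NOC2L had the most counts per kilobase of exon in this group under CC-885, and shares exonic sequence with SAMD11, which fell (log2 fold change -1.24). NOC2L gave 279, 290.4 and 248 CPM under CC-885 and 212, 163 and 231 CPM under DMSO (log2 fold change 0.43, SE 0.16, adjusted p = 0.0357). Smaller increases were called for PES1 (0.40), the methyltransferase NOP2 (0.43), NOP16 (0.40), the GTPase nucleostemin GNL3 (0.34) and its paralog GNL3L (0.35). These calls, and that of NOC2L, each needed certain libraries. All of them were also lost with a filter at 5 CPM in 3 libraries (adjusted p from 0.0506 for PES1 to 0.0793 for GNL3). Those of NOP16, GNL3 and GNL3L were lost with library size only as well (adjusted p of 0.0811, 0.0758 and 0.0511). The call of NOC2L did not hold without replicate 1 (adjusted p of 0.0926) or 2 (0.121) of CC-885 or replicate 1 (0.0599) of DMSO. The call of PES1 did not hold without replicate 1 (adjusted p of 0.0597) or 2 (0.121) of CC-885. NOP2 was no longer called without replicate 1 (adjusted p of 0.0734), 2 (0.0844) or 3 (0.0750) of CC-885 or replicate 1 (0.0588) of DMSO. NOP16 shares exonic sequence with HIGD2A, which fell (log2 fold change -0.79), and with ARL10, which was not called (0.46). GNL3 shares exonic sequence with GLT8D1. NOP16 was no longer called without replicate 2 (adjusted p of 0.167) of CC-885 or replicate 1 (0.0851) or 3 (0.0990) of DMSO. GNL3 missed the threshold without replicate 1 (adjusted p of 0.0609), 2 (0.0868) or 3 (0.114) of CC-885 or replicate 1 (0.165) of DMSO. GNL3L missed it without replicate 1 (adjusted p of 0.0655), 2 (0.124) or 3 (0.0558) of CC-885 or replicate 1 (0.0617) of DMSO. RRP1B was not called (log2 fold change 0.25, adjusted p = 0.240) but passed without DMSO replicate 3 (0.44, adjusted p = 0.0243). MRTO4, a stand-in for a stalk protein of the large subunit, was not called (log2 fold change -0.12, adjusted p = 0.486). BOP1 and WDR12, which form a trimer with PES1, were not called either (log2 fold changes -0.17 and -0.03, adjusted p = 0.329 and 0.866). WDR12 passed as lower once GC content and transcript length entered as offsets (log2 fold change -0.27, adjusted p = 0.0221).

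Within several complexes the mRNAs of partners stood in another ratio with CC-885. Such a ratio within a library does not depend on library size. An effect of GC content or transcript length that differs between groups would not cancel in it. The longest transcript had 57.1% GC and 865 bases for NHP2, against 48.4% and 3079 bases for DKC1. With offsets for both, the decreases of NHP2 and NOB1 were smaller and FBL passed as higher, as given above. The ratios carry no such offsets. Ratios are of CPM per kilobase of annotated exon, the pairs were chosen after their values were seen, and no test was made. NHP2 to DKC1 was 1.61, 1.30 and 1.23 in CC-885 cells and 3.41, 3.11 and 3.08 in the DMSO libraries. TAF1A to TAF1B was 2.29, 2.92 and 2.56 under CC-885 and 0.907, 0.929 and 0.954 under DMSO. NOB1 to PNO1, which act at the same cleavage site, was 0.871, 0.733 and 0.831 under CC-885 and 2.45, 2.07 and 2.59 under DMSO. In each of these pairs the groups stood apart, and for TAF1A to TAF1B and NOB1 to PNO1 the order of the partners by this length measure changed. FBL to NOP58 averaged 3.37 ± 0.528 under CC-885 and 5.12 ± 0.938 under DMSO, and PES1 to BOP1 1.62 ± 0.140 under CC-885 and 1.08 ± 0.0652 under DMSO (mean ± SD, n = 3 each). The shift of these pairs was smaller than in the first 3, without overlap between groups. PES1 to WDR12 showed overlap, at 7.51, 7.88 and 6.19 under CC-885 and 6.20, 4.16 and 5.85 under DMSO.

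**Figure D3:**
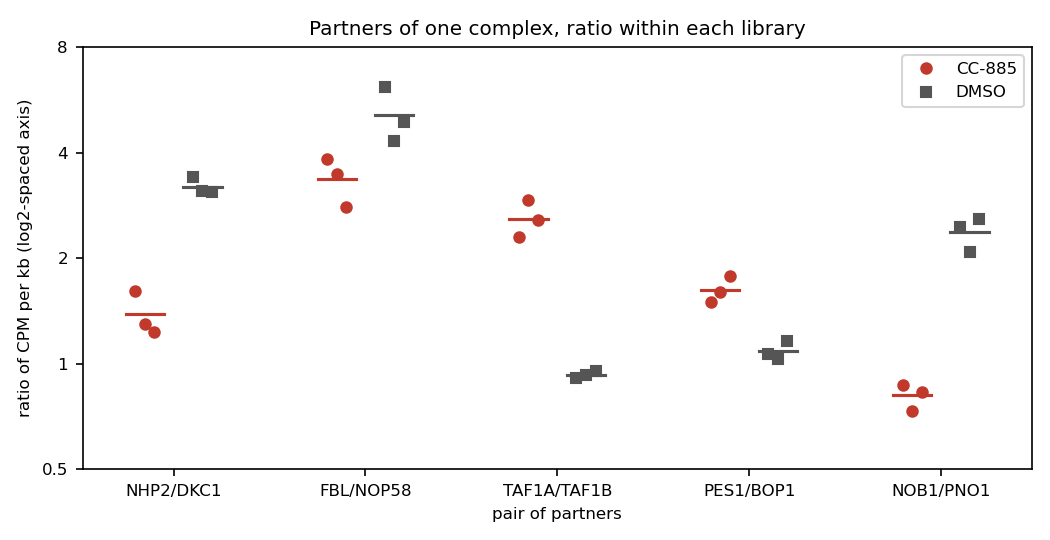
Ratio of CPM per kilobase between partners of one complex in each library on a log2-spaced axis; circles are CC-885 libraries, squares DMSO libraries, and short lines group means. NHP2/DKC1, FBL/NOP58 and NOB1/PNO1 are lower with CC-885, at group means of 1.38, 3.37 and 0.812, against 3.20, 5.12 and 2.37 with DMSO, and TAF1A/TAF1B and PES1/BOP1 are higher.

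Many promoters of the members hold a sequence feature that was not used to choose them. The E-box CACGTG, which reads the same on both strands and is bound by MYC with MAX and by other basic helix-loop-helix factors such as USF, was searched in RefSeq promoters (GRCh38.p14, 250 bases before to 50 bases after a transcript start). Of the 44 members with a listed promoter, 21 (47.7%) held an E-box, against 12.5% of 10654 other tested genes and 8.77% of all 27305 genes in the table. In 20 members (45.5%) it lay within 50 bases of the start, against 5.14% of the other tested genes. The ETS site CCGGAAGT was present in 12 members (27.3%, against 9.59% of the other tested genes). The CCAAT box was present in 47.7% of members and 43.1% of the other tested genes, the cyclic AMP element TGACGTCA in 4.55% and 3.78%, and the GC box GGGCGG in 75% and 76.3%. Within 50 bases of the start the ETS site was in 20.5% of members and 6.13% of the other tested genes. There the GC box was in 29.5% and 48.5%, the CCAAT box in 13.6% and 13.1%, and the cyclic AMP element in 2.27% and 1.68%. These searches covered both strands, and a match is a description of letters and not a bound site. Stretches of 30 bases show the E-box and its flanks in genes that were higher and in genes that were not called; the E-box is in capitals, and each is read in the direction of the gene from RefSeq, GRCh38.p14. The first 6 are the members with an E-box and the highest log2 fold change, and the last 4 those with the lowest.
BYSL (chr6:41921515-41921544, plus strand): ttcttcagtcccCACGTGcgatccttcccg
DDX21 (chr10:68956604-68956633, plus strand): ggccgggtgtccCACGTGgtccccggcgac
WDR43 (chr2:28894658-28894687, plus strand): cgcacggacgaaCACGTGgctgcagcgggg
UTP4 (chr16:69132621-69132650, plus strand): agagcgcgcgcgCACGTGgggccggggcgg
UTP20 (chr12:101280083-101280112, plus strand): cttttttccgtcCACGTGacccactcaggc
PNO1 (chr2:68157885-68157914, plus strand): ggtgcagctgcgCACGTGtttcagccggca
FBL (chr19:39846356-39846385, minus strand): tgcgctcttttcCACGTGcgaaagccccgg
PWP2 (chr21:44107388-44107417, plus strand): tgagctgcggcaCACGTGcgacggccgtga
NOP10 (chr15:34343130-34343159, minus strand): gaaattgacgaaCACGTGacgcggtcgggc
MRTO4 (chr1:19251807-19251836, plus strand): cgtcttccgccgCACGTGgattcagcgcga

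Counting the start as 0, the first base of the printed E-box lay at position 28 in BYSL, -31 in DDX21, 3 in WDR43, -16 in UTP4, -10 in UTP20 and 9 in PNO1, all called higher. In the genes not called it lay at position 6 in FBL, 1 in PWP2, -11 in NOP10 and 14 in MRTO4. Higher members were found both with and without an E-box, and no test of the difference was made. Of the 21 members with one, 15 were called higher, 0 lower and 6 not called (median log2 fold change 0.56), and of the 23 without one 15 were higher, 2 lower and 6 not called (median 0.43). Among the other tested genes 25.7% of those with an E-box and 26.5% of those without were called higher, both near the 25.8% of all tested genes. RRN3, TAF1A and TAF1D had none in this window.

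**Figure D4:**
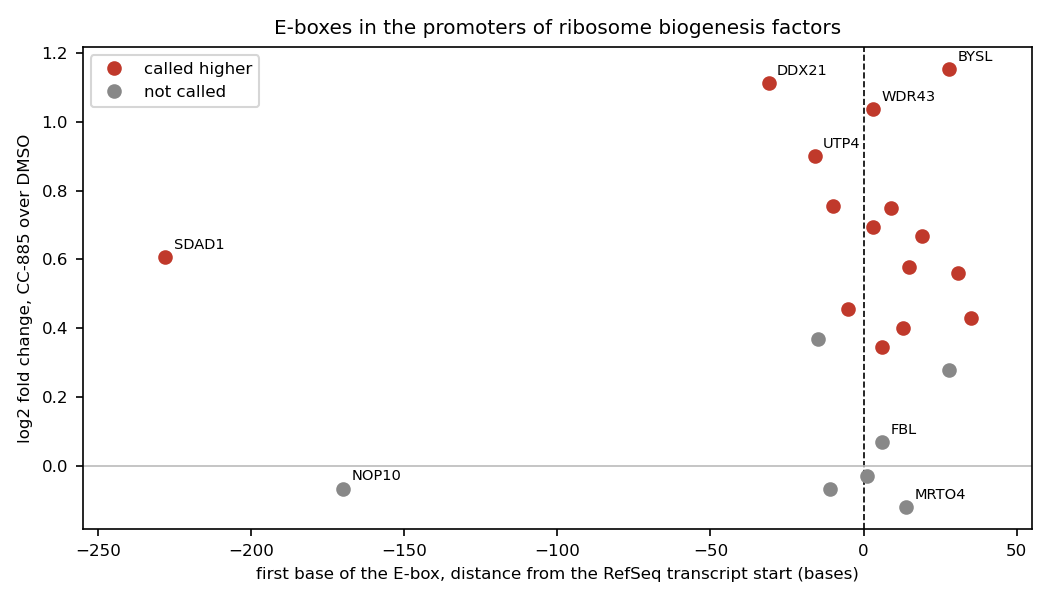
Position of each E-box relative to the RefSeq transcript start, in bases, against the log2 fold change of its gene; 22 E-boxes of 21 members are drawn and colours give the call. All but 2 lie within 50 bases of the start, over the range of log2 fold changes from -0.12 (MRTO4) to 1.15 (BYSL).

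Other genes of the same pathway were listed by role. Earlier results of these data were known by then, so these lists are not independent of the data. Each list gave a lower share of higher genes than the 50 (68%). All lists but that of the exosome stood above the 25.8% of all tested genes. Of 44 other factors of the large subunit 28 were higher and 2 lower (median log2 fold change 0.52). BRIX1, a factor of early large subunit particles, averaged 253 ± 18.1 CPM under CC-885 and 110.3 ± 11.9 CPM under DMSO (log2 fold change 1.20, adjusted p = 3.89e-05), and SBDS, which helps to release EIF6 from the new large subunit, averaged 206 ± 21.5 CPM under CC-885 and 90.1 ± 12.3 CPM under DMSO (log2 fold change 1.19, adjusted p = 6.72e-05). EIF6 and NOP53 were the lower genes (log2 fold changes -0.61 and -0.55). The call of EIF6 did not hold without replicate 1 (adjusted p of 0.0534) or 3 (0.127) of CC-885 or replicate 1 (0.0874) or 2 (0.172) of DMSO, while that of NOP53 (adjusted p = 0.00298) held without any single library. Of 40 other factors of the small subunit 20 were higher (50%) and 2 lower (5%), with a median of 0.37. MPHOSPH10 and NOM1 had the smallest p among the higher (log2 fold changes 1.21 and 0.89). IMP3, which binds MPHOSPH10 in the U3 particle, was the lower gene with the largest change, at 22.5, 19.7 and 14.4 CPM under CC-885 and 48.9, 56.5 and 41.9 CPM under DMSO (log2 fold change -1.38, SE 0.18, adjusted p = 9.93e-05). TRMT112, a cofactor of methyltransferases, was lower too (-0.76).

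Among 13 snoRNP assembly factors 6 were higher (46.2%) and 1 lower (7.69%), against 25.8% and 26.8% of all tested genes. NUFIP1, a platform for box C/D assembly, averaged 32.3 ± 1.05 CPM under CC-885 and 13.0 ± 1.83 CPM under DMSO (log2 fold change 1.31, adjusted p = 3.15e-05). PIH1D1 was higher (0.88), and NOPCHAP1 lower (-0.55), a call that did not hold without replicate 1 (adjusted p of 0.0530) or 2 (0.0762) of CC-885 or replicate 1 (0.0617) of DMSO. A list of 10 genes joined RNA polymerase I subunits with TBP and the termination factor TTF1. In it 4 were higher (40%) and 2 lower (20%), with POLR1E (0.65) and TTF1 (0.63) among the higher. POLR1H was lower, at 12.8, 13.0 and 10.5 CPM under CC-885 and 38.4, 51.8 and 20.3 CPM under DMSO (log2 fold change -1.61, SE 0.32, adjusted p = 0.00525), with a wide spread among the DMSO libraries. The call of POLR1D (-0.42) did not hold without replicate 1 (adjusted p of 0.0918), 2 (0.0590) or 3 (0.114) of CC-885 or replicate 1 (0.0817) or 2 (0.0889) of DMSO. The RNA exosome, which trims spacers and destroys by-products, had 3 of 14 higher (21.4%) and 2 lower (14.3%). The share higher was near the background and the share lower was below it. EXOSC9 (1.17) and the nuclease DIS3 (0.69) were among the higher, and C1D (-0.69) and EXOSC5 (-0.72) were lower. EXOSC9 shares exonic sequence with CCNA2, DIS3 with BORA and PIBF1, BRIX1 with RAD1, SBDS with TYW1, TRMT112 with ESRRA, IMP3 with SNX33, PIH1D1 with ALDH16A1, NOPCHAP1 with ALDH1L2 and EXOSC5 with BCKDHA on the opposite strand.

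**Figure D5:**
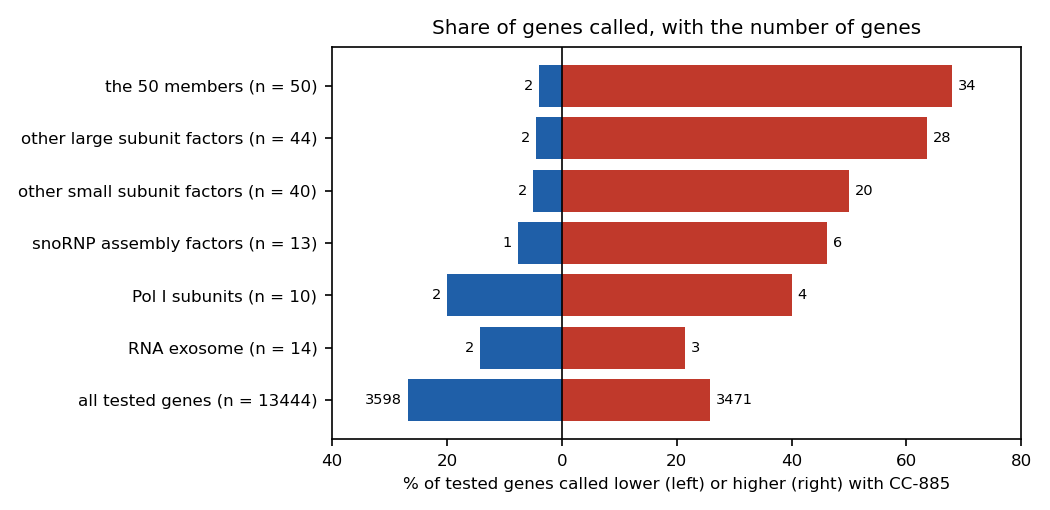
Share of tested genes called higher (right) or lower (left) with CC-885 in the set of 50, in 5 lists of other pathway genes and over all tested genes, with the number of genes at each bar. The set of 50 has 68% higher and 4% lower, the exosome list 21.4% higher and 14.3% lower, and all tested genes 25.8% higher and 26.8% lower.

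Several members carry snoRNA genes inside their own introns or exons, so that a transcript of the host also yields guide RNAs. In GENCODE 29, 8 of the 50 contain such genes on their strand (33 in all), and 7 of these hosts were called higher: TAF1D with 8 snoRNA genes, GNL3 with 6, NOP56 with 5, NOP58 with 4, WDR43 with 3, and DKC1 and TSR1 with 2 each. NCL, with 3, was not called. These 8 hosts are not shown to differ from the rest of the set, of which 68% was higher, against 25.8% of all tested genes. The snoRNAs themselves were not measured here. Base composition also moved with the calls. The median GC content of the longest annotated transcript was 45.0% for the 34 higher members, 51.1% for the 14 not called and 55.8% for NHP2 and NOB1. Over all tested genes it was 45.9% for higher, 52.1% for lower and 48.9% for uncalled genes. The longest transcript had a median length of 3268 bases for higher members, 3195 bases for uncalled members and 1300 bases for the 2 lower ones. Over all tested genes the median was 4265.5 bases for higher, 3124 bases for lower and 3572 bases for uncalled genes. With offsets fitted on GC content and transcript length, 35 members were called higher and 4 lower.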

How the data were processed

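The authors deposited whole-number counts per gene, 1 column per library, without normalization, as the values and file header show. With the aligner and counting tool not given in the sources used here, what is on record are GRCm38 and mm10, mouse builds, per the submitters' processing notes. Row identifiers are, however, human Ensembl genes, so only coordinates of the RefSeq promoters (GRCh38.p14) are printed. Symbols came from a table of gene names (20148 of 20263 rows) or GENCODE 29 (76). Of the 50 members, 30 share exonic sequence with another GENCODE 29 gene. These include NOB1, PES1, PNO1, GNL2 and NMD3, which are not marked above. Of the 20 that do not, 12 were higher and 0 lower. Named pseudogenes exist for 14 members, among them NOP56, NIP7 and SDAD1, also not marked above. Lengths are merged exons of all annotated transcripts, which can exceed those of the main mRNA, so levels per kilobase are approximate.

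Counts were fitted with edgeR 4.0.16 under R 4.3.3: TMM factors, filterByExpr (minimum count 10), robust quasi-likelihood F test without covariate, Benjamini-Hochberg adjustment over 13444 genes, calls at an adjusted p below 0.05. Standard errors are approximate, from dividing each log2 fold change by the root of its F. CPM are TMM-normalised. A count of 0 allows 0.0754 to 0.0986 CPM per library (3 counts of the total, before TMM scaling), covering counting error only and taking each count as a separate fragment. Of counts from 1 to 9, 67.4 to 70.5% were even, so reads of a fragment may have been counted apart. In that case a count of 0 would allow a higher level than given.

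The members and lists were chosen with earlier results of these data known. Values in every library are given for up to 3 called members per role and direction with the smallest p and for the member with the most counts per length; 2 genes per direction are named from each other list. NCL, RRP12, LTV1, NAT10 and UBTF are described further after their values were seen. Alternatives were other scalings, DESeq2 1.42.0, limma-voom (limma 3.58.1), other filters, a replicate block, each library left out, halved counts, and offsets for GC content and length.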

Additional observations from a re-analysis of the deposited data

How the results depend on the processing

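The number of members called higher was 34 with DESeq2 size factors, the DESeq2 Wald test, limma-voom, no filter on low counts, the replicate block and halved counts, 31 with library size only, 27 with a filter at 5 CPM in 3 libraries, and 35 with GC and length offsets. Leaving out a library gave 24 to 35. The number called lower was 2 under all of these, except 4 with GC and length offsets, where TAF1B (adjusted p = 0.0393) and WDR12 (adjusted p = 0.0221) were added. The median log2 fold change of members was 0.40 with the CPM filter and otherwise 0.41 to 0.52 (0.44 to 0.52 leaving out a library); the cause was not tested. Leaving out a library gave 2897 to 3650 for the number of all tested genes higher and 2908 to 3720 for that of all tested genes lower. Of the 36 called members 23 kept their call under every alternative and 13 lost it under at least 1, none with a change of direction. Same-numbered libraries of both groups deviated together only weakly (correlations 0.096, 0.031 and 0.072), so replicate numbers were not taken to pair them, and the replicate block gave 34 higher and 2 lower. RRP1B missed the threshold with all 6 libraries but passed without DMSO replicate 3.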
